A study of Mus musculus with 18 samples.

Results

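The 46 genes described here code for secreted Wnt proteins, their receptors, the R-spondins and Lgr receptors that raise the sensitivity of cells to Wnt, secreted inhibitors, and genes that Wnt signalling is known to switch on. The rule that chose them uses names and roles, but the list was drawn up with earlier results of these data known; it comprises 12 ligands, 12 receptors, 6 R-spondins and Lgr receptors, 6 inhibitors and 10 targets. All 46 were measured, among 17091 genes with a symbol on the arrays. The study compared mice or cells lacking cyclin C (Ccnc), labelled CCNC-/-, with wild type, which the sample titles call control. The 6 groups were knockout and wild-type primary embryonic fibroblasts, knockout and wild-type embryonic brain at E18.5, and knockout and wild-type embryonic stem (ES) cells, with 3 arrays each, 18 in all. The labels call the arrays of a group biological replicates and name no separate cultures, litters or clones, so that the p-values measure the spread between these samples, which may in part be technical. The sources used here do not give how the gene was deleted, or in which cells.

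Wnt proteins bind Frizzled receptors together with the co-receptors Lrp5 and Lrp6, which stops the destruction of β-catenin and lets it enter the nucleus, where it acts with the DNA-binding proteins Lef1 and Tcf7. R-spondins bind Lgr receptors and remove the ubiquitin ligases Rnf43 and Znrf3, which otherwise clear Frizzled proteins from the cell surface. Sfrp proteins and Wif1 bind Wnt itself, while Dkk1 and Dkk2 bind Lrp5 and Lrp6. In the embryo the pathway patterns limb, gut and brain, and it helps ES cells to renew themselves. Cyclin C partners the kinases Cdk8 and Cdk19 within Mediator, a large assembly through which transcription factors reach RNA polymerase II.

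Expression is given as log2 RMA values, in which a step of 1 is a doubling, and each gene is compared only with itself. A gene was called where limma's adjusted p (Benjamini-Hochberg over all 17091 genes) was under 0.05. Values ran from 3.75 to 15.36, with a median gene mean of 8.38, and 12 of the 46 genes, Wnt9a and Rspo3 among them, had means below the 25th percentile of all genes. With no read depth on arrays, the precision is set by the 3 arrays of each group. Ccnc was at 8.28, 8.24 and 8.30 in knockout fibroblasts, against 9.56, 9.61 and 9.54 in wild-type fibroblasts, and the difference of -1.29 passed the test (SE 0.05, limma adjusted p = 6.77e-06). In brain it was at 8.17, 8.08 and 8.37 in knockout arrays, against 8.82, 8.65 and 9.24 in wild-type arrays (difference -0.69, SE 0.15, limma adjusted p = 0.627, and 0.0426 with the replicate numbers as a block). In ES cells it was at 6.68, 6.78 and 7.33 in knockout arrays, against 9.28, 9.47 and 9.14 in wild-type arrays (difference -2.37, SE 0.19, limma adjusted p = 0.0247, and 0.11 to 0.299 without any 1 wild-type array or knockout array 2). No knockout array overlapped its wild-type group in any cell type, in the direction that the labels give. In brain this is a weak check of the labels, because 6.06% of all genes were lower there without overlap. The labelled cell types also carried their markers: the list means of 7 ES cell markers lay between 12.53 and 13.14 in ES cells, those of 8 fibroblast markers between 13.16 and 13.35 in fibroblasts, and those of 7 neuronal markers between 12.25 and 12.43 in brain. A single array stood apart: the mean of 10 markers of primitive and visceral endoderm was 9.95 in ES cell knockout array 1, where knockout arrays 2 and 3 had 7.36 and 7.50 and wild-type ES cells had 7.60, 7.17 and 7.22.

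In knockout fibroblasts 9 of the 46 genes passed the test (19.6%), 3 of them higher and 6 lower, where 12% of all genes tested passed, 7.11% higher and 4.93% lower. The 6 that fell were 4 of the 6 R-spondin and Lgr genes and 2 of the 6 inhibitors, and the 3 that rose were 2 of the 12 ligands and 1 of the 10 targets. None of the 46 genes passed in brain or in ES cells. In a fit of all 18 arrays, which takes 1 spread from all cell types, 3 of the 9 passed, Rspo2, Lgr5 and Dkk2; the limma adjusted p of the other 6 ran from 0.0715 for Wnt9a to 0.835 for Lef1. The groups did not overlap for 17 of the 46, 7 higher and 10 lower, where 30.9% of all genes had groups apart, 18.4% higher and 12.5% lower. Over all 46 genes the median difference in fibroblasts was 0.01, the same as over all genes tested (0.01).

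**Figure D1:**
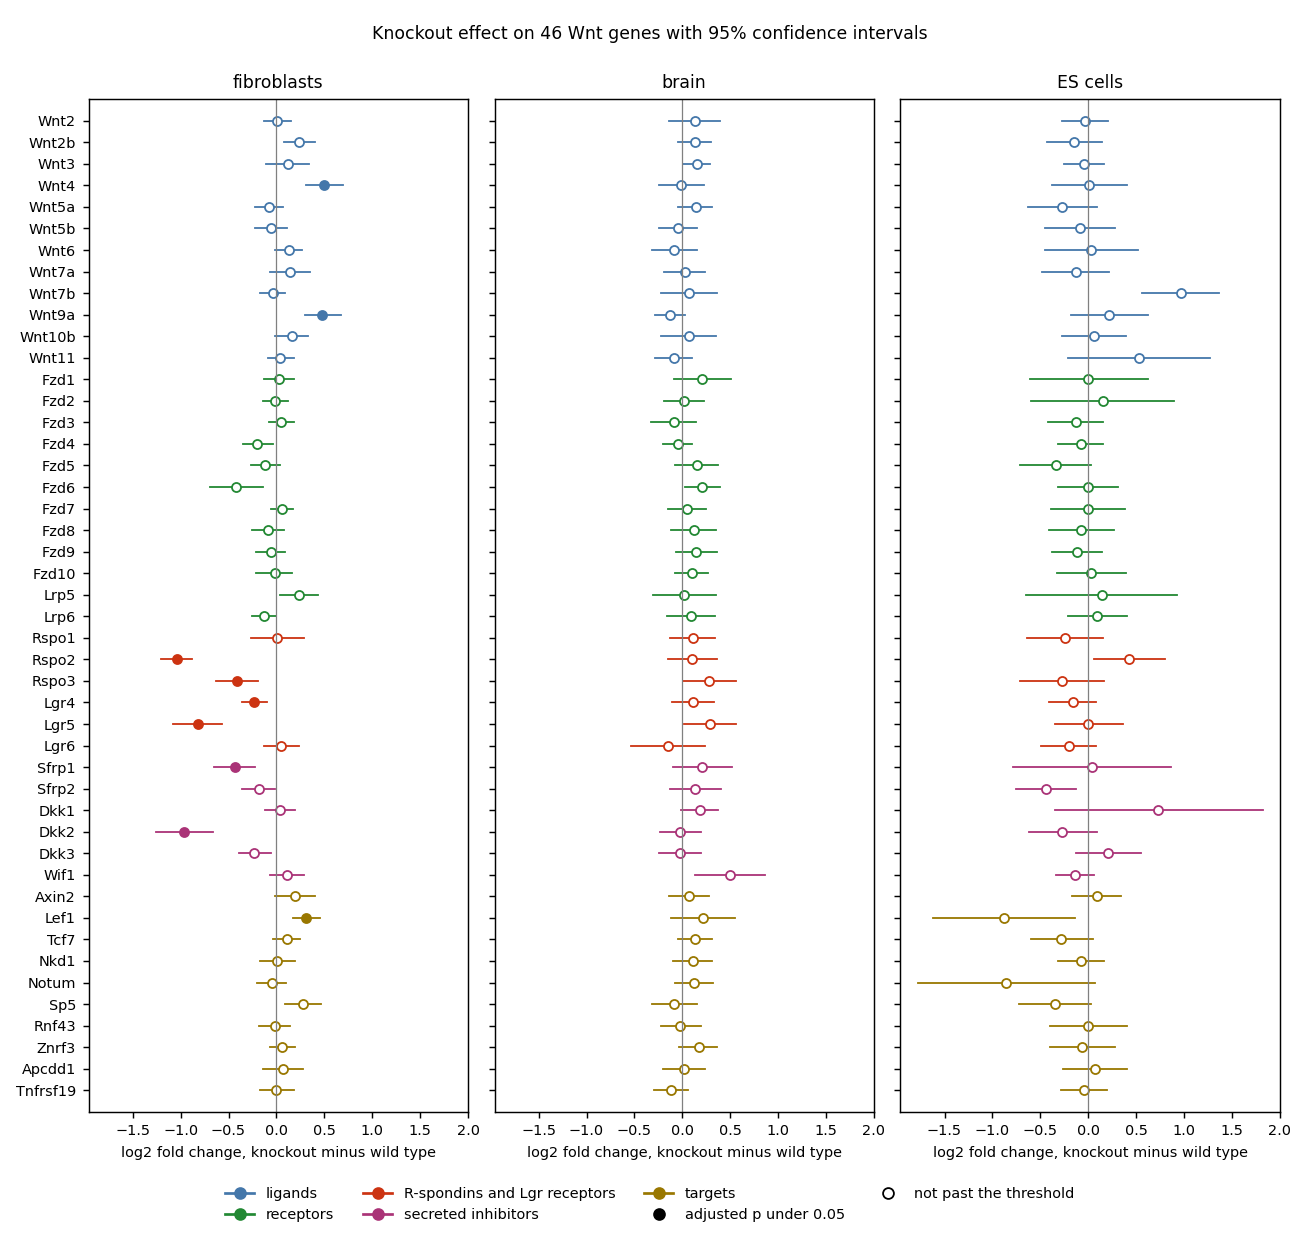
Knockout effect on each of the 46 genes in fibroblasts, brain and ES cells. Points show the log2 fold change (knockout minus wild type), lines are 95% confidence intervals of the limma fit (3 arrays per group), and filled points passed an adjusted p of 0.05. Filled points are found in the fibroblast panel alone, where Rspo2 lies lowest at -1.04 and Wnt4 highest at 0.50, and the intervals are widest for ES cell genes such as Dkk1, Notum and Sfrp1.

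The promoters of the called genes are shown because these genes passed the test in the same cell type. RefSeq windows (build GRCm38.p6) of 250 bases before to 50 after a start site were available for Lgr4, Dkk2, Wnt4, Wnt9a and Lef1. Lgr4 (chr2:109917397-109917696, plus strand) and Dkk2 (chr3:132085042-132085341, plus strand) fell in knockout fibroblasts, and Wnt4 (chr4:137277385-137277684, plus strand), Wnt9a (chr11:59306680-59306979, plus strand) and Lef1 (chr3:131156044-131156343, plus strand, the last of its 4 annotated start sites) rose. Capitals mark a match to the Tcf/Lef motif, CTTTGNN with A or T at each N, on either strand.
Lgr4: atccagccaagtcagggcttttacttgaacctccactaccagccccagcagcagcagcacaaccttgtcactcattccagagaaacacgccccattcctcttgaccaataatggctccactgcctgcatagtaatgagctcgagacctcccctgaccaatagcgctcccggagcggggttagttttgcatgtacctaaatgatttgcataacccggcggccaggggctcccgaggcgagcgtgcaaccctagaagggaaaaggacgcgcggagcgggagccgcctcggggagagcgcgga
Dkk2: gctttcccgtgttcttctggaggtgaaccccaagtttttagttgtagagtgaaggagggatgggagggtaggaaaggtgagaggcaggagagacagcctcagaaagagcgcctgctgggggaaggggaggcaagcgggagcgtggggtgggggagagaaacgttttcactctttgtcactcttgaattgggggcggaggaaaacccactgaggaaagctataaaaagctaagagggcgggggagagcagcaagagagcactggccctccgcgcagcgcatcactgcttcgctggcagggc
Wnt4: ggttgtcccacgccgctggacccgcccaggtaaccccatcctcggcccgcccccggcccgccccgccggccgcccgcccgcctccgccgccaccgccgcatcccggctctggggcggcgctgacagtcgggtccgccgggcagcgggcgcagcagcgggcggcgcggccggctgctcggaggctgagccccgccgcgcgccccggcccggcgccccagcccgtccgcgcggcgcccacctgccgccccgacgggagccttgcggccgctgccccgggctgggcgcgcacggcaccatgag
Wnt9a: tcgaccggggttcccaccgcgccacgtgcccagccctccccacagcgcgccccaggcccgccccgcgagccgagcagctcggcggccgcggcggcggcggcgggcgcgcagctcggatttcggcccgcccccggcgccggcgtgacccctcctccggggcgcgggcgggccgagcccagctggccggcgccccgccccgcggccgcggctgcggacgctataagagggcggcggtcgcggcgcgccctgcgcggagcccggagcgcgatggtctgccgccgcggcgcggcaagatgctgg
Lef1: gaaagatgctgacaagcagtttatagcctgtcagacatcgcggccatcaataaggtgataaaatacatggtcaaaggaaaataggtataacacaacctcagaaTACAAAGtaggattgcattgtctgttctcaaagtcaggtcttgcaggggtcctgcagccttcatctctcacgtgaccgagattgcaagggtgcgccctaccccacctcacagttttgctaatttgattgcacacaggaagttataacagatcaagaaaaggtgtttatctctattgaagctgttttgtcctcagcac

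The shown Lef1 window was printed because it alone among the windows of these genes held the motif, at position -147 relative to the start site, on the minus strand. The windows of the other 3 Lef1 start sites, which lie upstream of it (the first at chr3:131110047-131110346), held none. The motif was found in 16.9% of all 32851 promoter windows. Of the 46 genes only 30 had a window, 39 windows in all, and the others could not be searched. The motif was in 8 of the 39 windows (20.5%), those of Dkk1, Fzd7, Lef1, Sp5, Tnfrsf19, Wnt11, Wnt3 and Wnt5b. A match is a run of letters, and a window without one says nothing of binding elsewhere. The windows of Wnt4 and Wnt9a were rich in G and C (84.3% and 83.3%), those of Lgr4 and Dkk2 less so (58.3% and 57.7%).

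The largest change in fibroblasts was that of Rspo2, a secreted R-spondin known for its role in limb and craniofacial growth. It was at 8.82, 8.65 and 8.61 in knockout arrays, against 9.83, 9.70 and 9.67 in wild-type arrays, so that every knockout array lay below every wild-type array. The knockout level was 48.6% of wild type (log2 difference -1.04, SE 0.07, limma adjusted p = 9.87e-05). Rspo3, which in the mouse is needed for placental and vascular development, was at 7.40, 7.75 and 7.73 in knockout arrays, against 7.92, 8.12 and 8.08 in wild-type arrays. Its difference of -0.41 (SE 0.10, limma adjusted p = 0.0267) was smaller, and again the groups did not overlap. Rspo1, another R-spondin, differed by 0.01 (SE 0.13).

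Lgr5, an R-spondin receptor best known as a stem cell marker of the gut, was at 8.34, 8.42 and 8.05 in knockout fibroblasts, against 9.31, 8.96 and 9.01 in wild-type fibroblasts. All knockout arrays were below all wild-type arrays, at 56.5% of the wild-type level on average (log2 difference -0.82, SE 0.11, limma adjusted p = 0.00246). Lgr4, the broadly expressed receptor of the same family, was at 9.81, 9.85 and 10 in knockout arrays, against 10.11, 10.07 and 10.16 in wild-type arrays. The groups lay close to each other without overlap (difference -0.23, SE 0.06, limma adjusted p = 0.0352). Lgr6 differed by 0.05 (SE 0.08, limma adjusted p = 0.743). The Lgr4 call was lost without any 1 wild-type array (limma adjusted p 0.074 to 0.125) and without knockout array 1 (0.0659) or 2 (0.132), and that of Rspo3 without wild-type array 2 (0.0968) or 3 (0.0893).

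**Figure D2:**
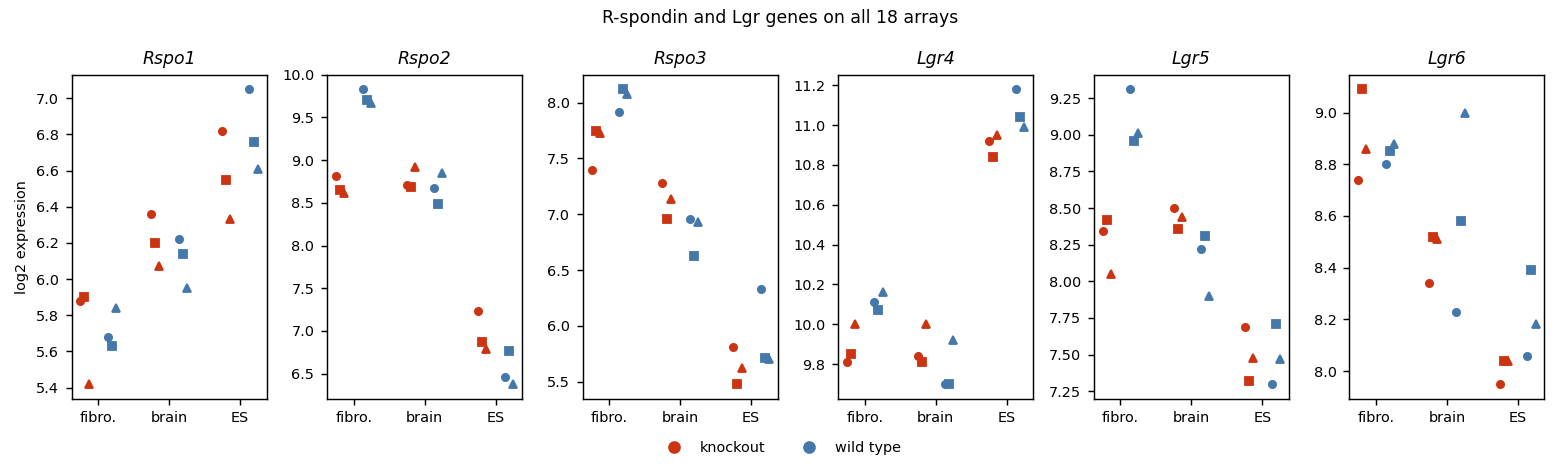
Log2 expression of 3 R-spondin genes and 3 Lgr receptor genes on all 18 arrays, 1 panel per gene with its own vertical axis, knockout (red) left of wild type (blue) in fibroblasts, brain and ES cells; circles, squares and triangles are arrays 1, 2 and 3. Rspo2, Rspo3, Lgr4 and Lgr5 are lower in all knockout fibroblast arrays than in all wild-type fibroblast arrays, while in brain Rspo3 and Lgr5 are higher in all knockout arrays.

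Among the inhibitors, Dkk2, a modulator of the Lrp co-receptors, was at 9.55, 9.92 and 10.15 in knockout fibroblasts, against 10.65, 10.88 and 10.97 in wild-type fibroblasts. The knockout arrays varied more among themselves than the wild-type arrays, and the highest of them was still below the lowest wild-type array. Its level was 51.5% of wild type (log2 difference -0.96, SE 0.14, limma adjusted p = 0.00281). Sfrp1, a decoy that binds Wnt, was at 8.81, 8.89 and 8.49 in knockout arrays, against 9.21, 9.19 and 9.08 in wild-type arrays. The groups did not overlap, and the difference was -0.43 (SE 0.10, limma adjusted p = 0.0195). That call was lost without wild-type array 1 (limma adjusted p = 0.0634) or 2 (0.0682).

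Dkk3, a Dkk relative whose place in the pathway is less settled, was at 10.45, 10.70 and 10.47 in knockout fibroblasts, against 10.74, 10.85 and 10.70 in wild-type fibroblasts (difference -0.23). The highest knockout array and the lowest wild-type array met at nearly the same value, and the gene passed with the replicate numbers as a block (limma adjusted p = 0.00787) but not without it (0.0725). Sfrp2 differed by -0.18 (SE 0.08), Dkk1 by 0.04 (SE 0.07) and Wif1 by 0.11 (SE 0.08), none of them past the threshold.

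A pair of ligands and a nuclear partner of β-catenin were higher in knockout fibroblasts. Wnt4, a ligand of kidney and reproductive tract development, was at 8.23, 8.36 and 8.07 in knockout arrays, against 7.76, 7.78 and 7.62 in wild-type arrays. Every knockout array was above every wild-type array, by 1.41-fold on average (log2 difference 0.50, SE 0.08, limma adjusted p = 0.00546). Wnt9a, a ligand known from joint formation, was at 7.18, 7.42 and 7.44 in knockout arrays, against 6.91, 6.84 and 6.83 in wild-type arrays. It too was higher in each knockout array than in any wild-type array (1.40-fold, log2 difference 0.48, SE 0.08, limma adjusted p = 0.00563). The other 10 ligands differed by -0.08 to 0.24, with Wnt2b at the upper end (SE 0.07, limma adjusted p = 0.0583) and Wnt5a at the lower (SE 0.07, limma adjusted p = 0.516).

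Of the 12 receptors none passed. Fzd6, a Frizzled known from the planar polarity of hair follicles, had the largest difference. It was at 7.75, 8.08 and 8.17 in knockout fibroblasts, against 8.20, 8.49 and 8.58 in wild-type fibroblasts. The groups touched without overlap, and the difference of -0.42 (SE 0.12) passed with the replicate block (limma adjusted p = 0.00086) but not without it (0.0542). Fzd4 (-0.20) and Lrp6 (-0.13) were also below wild type in every knockout array without passing, and the other 9 receptors differed by -0.12 to 0.24.

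Of the targets, Lef1, which is both a DNA-binding partner of β-catenin and a gene that the pathway turns on, was at 6.98, 7.03 and 6.95 in knockout fibroblasts, against 6.73, 6.66 and 6.64 in wild-type fibroblasts. The knockout arrays were all higher, by 1.24-fold (log2 difference 0.31, SE 0.06, limma adjusted p = 0.0138). The call was lost without wild-type array 2 (limma adjusted p = 0.053) or 3 (0.0573) and without knockout array 2 (0.061). Sp5, a transcription factor that responds closely to β-catenin, was at 7.17, 7.27 and 7.42 in knockout arrays, against 6.96, 6.93 and 7.13 in wild-type arrays. It was higher in each, by 0.28, and passed with the replicate block (limma adjusted p = 0.0197) but not without it (0.0573). Axin2, the scaffold gene most often used as a readout of the pathway, differed by 0.19 (SE 0.09, limma adjusted p = 0.225), and the ubiquitin ligase genes Rnf43 and Znrf3 by -0.02 and 0.06.

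**Figure D3:**
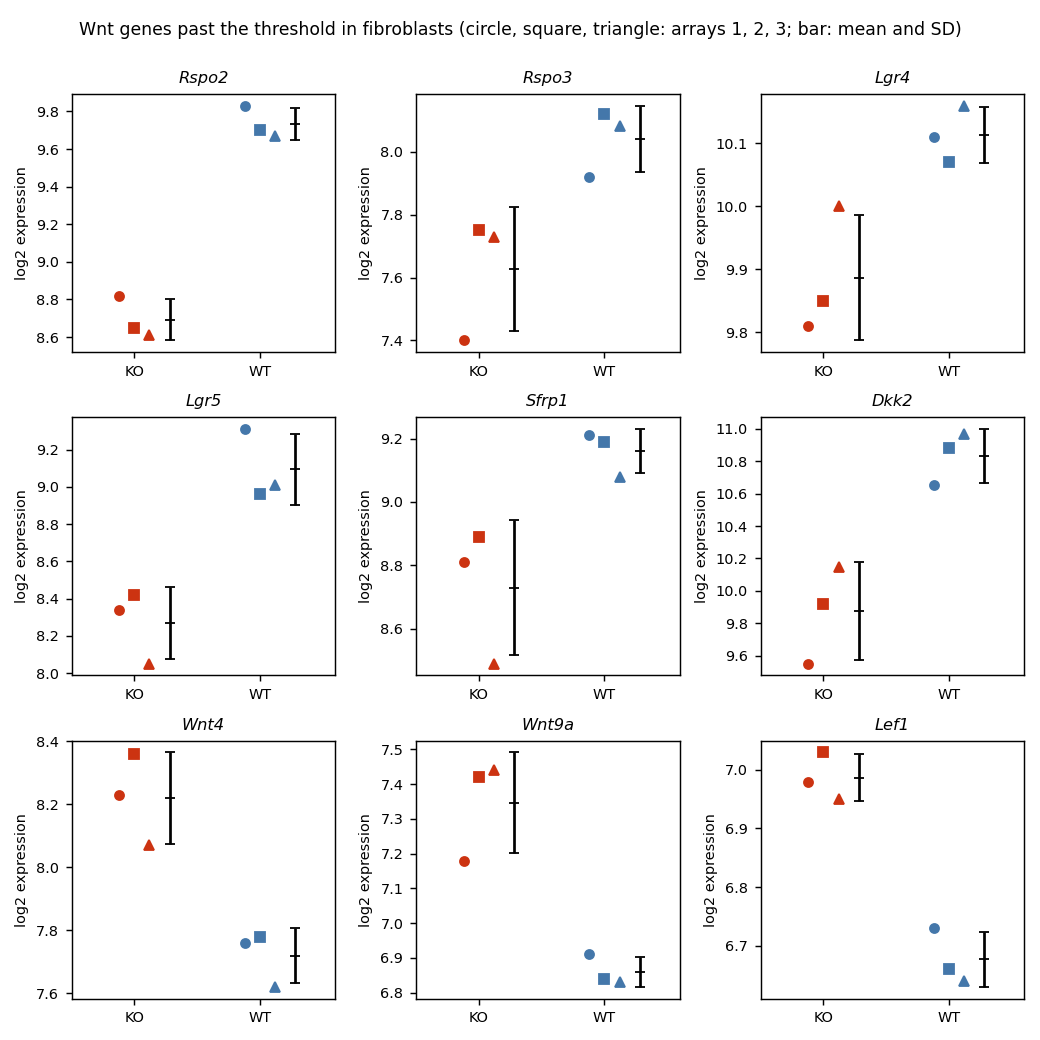
Log2 expression in fibroblasts of the 9 genes that passed the test, knockout (red) left of wild type (blue), each panel with its own vertical axis that does not start at 0. Circles, squares and triangles are arrays 1, 2 and 3, and the black bar is the mean with its SD (n = 3). Rspo2, Rspo3, Lgr4, Lgr5, Sfrp1 and Dkk2 are lower and Wnt4, Wnt9a and Lef1 higher in all knockout arrays.

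Among 57 measured genes of the rest of the pathway, 7 passed in fibroblasts (12.3%, against 12% of all genes). The casein kinase gene Csnk1e (0.28, SE 0.05, limma adjusted p = 0.00531) and Myc, a growth regulator that Wnt can induce (0.31, SE 0.07, limma adjusted p = 0.0189), were higher. The 5 lower genes were the Wnt-binding inhibitor Frzb (-0.56, SE 0.12), the polarity gene Prickle1 (-0.39, SE 0.11), Tcf7l2, another DNA-binding partner of β-catenin (-0.31, SE 0.06), the surface protein gene Cd44 (-0.20, SE 0.05), and the casein kinase gene Csnk1a1 (-0.19, SE 0.04). Their limma adjusted p-values ran from 0.00706 for Tcf7l2 to 0.0397 for Prickle1. With the replicate block 13 of the 57 passed, 5 higher and 8 lower, where 17.3% of all genes did, 10.3% higher and 7.03% lower, and 12 of the 46 passed, 4 higher and 8 lower.

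Lists of marker genes moved in the same arrays. The list mean of 5 proliferation markers lay between 11.03 and 11.16 in knockout fibroblasts, against 11.39 to 11.54 in wild-type fibroblasts, and all 5 fell. That of 5 smooth muscle markers lay between 12.47 and 12.69 in knockout, against 11.99 to 12.25 in wild type (3 of 5 rose), and that of 7 epithelial markers between 7.22 and 7.40 in knockout, against 6.83 to 6.86 in wild type (3 of 7 rose). Of the 8 fibroblast markers, 4 fell (13.16 to 13.26 in knockout, against 13.27 to 13.35 in wild type), as did 1 of 5 markers of the meninges (8.04 to 8.16 in knockout, against 8.29 to 8.46 in wild type). Neuronal list means were 6.92 to 7.0 in knockout, against 6.82 to 6.88 in wild type (1 rose, 1 fell). Those of radial glia were 6.67 to 6.78, against 6.60 to 6.65 (2 of 6 rose). Those of endothelium were 7.23 to 7.29, against 7.07 to 7.21 (1 of 6 rose). Signals below the 25th percentile of all genes were those of 5 of 7 epithelial and 4 of 7 neuronal markers. So were 5 of 6 radial glia and 4 of 6 endothelial markers. Of all genes, 7.11% rose and 4.93% fell. The part of these shifts in the Wnt gene changes was not tested, and in bulk RNA fewer cells of a type and less RNA per cell cannot be told apart.

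Whether the knockout effect differed between cell types was tested in 1 fit of all 18 arrays. Rspo2 fell in fibroblasts by 1.04, against a difference of 0.10 in brain, and the effects differed by -1.15 (SE 0.18, limma adjusted p = 0.0178). Against ES cells, where its difference was 0.43, the gap was -1.47 (SE 0.18, limma adjusted p = 0.00138). Lgr5 had effects of -0.82 in fibroblasts and 0.29 in brain, a gap of -1.11 (SE 0.20, limma adjusted p = 0.0264), while its gap to ES cells of -0.83 did not pass (limma adjusted p = 0.0583). Wnt7b, a ligand of lung and brain development, had effects of -0.04 in fibroblasts and 0.97 in ES cells, a gap of -1.01 (SE 0.19, limma adjusted p = 0.0235).

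These were 2 of 46 genes for fibroblasts minus brain, where 0.334% of all genes passed, and 2 of 46 for fibroblasts minus ES cells, where 0.995% did. None passed for brain minus ES cells, where 0.275% of all genes did (unadjusted p under 0.05 for 12 of the 46 and 2557 of all 17091), and the nearest was Wnt7b at -0.90 (limma adjusted p = 0.0624). With the replicate block, fibroblasts and brain differed for 5 genes, where 1.07% of all genes did, with Dkk2 (-0.94, limma adjusted p = 0.0186), Rspo3 (-0.70, 0.0428) and Fzd6 (-0.63, 0.0459) added. The Wnt7b gap was lost without any 1 of the 6 fibroblast arrays (limma adjusted p 0.053 to 0.073). The Rspo2 gap to brain was lost without wild-type fibroblast array 2 (0.0606), knockout fibroblast array 2 (0.0518) or wild-type brain array 1 (0.0522), and the Lgr5 gap in 8 of the 12 fits that left out a fibroblast or brain array (up to 0.0822).

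In ES cells no gene of the 46 passed, where 0.0117% of all genes passed; at an unadjusted p under 0.05 there were 4 of the 46, and 1446 of all 17091. Of the 46, 18 had a higher mean in knockout arrays (39.1%, against 42.7% of all genes). Wnt7b had the largest difference, at 11.17, 10.61 and 10.92 in knockout arrays, against 9.80, 9.85 and 10.15 in wild-type arrays. Each knockout array was above all wild-type arrays (difference 0.97, SE 0.17, limma adjusted p = 0.491), and the difference was 0.76 without both arrays numbered 1. In the fit of all 18 arrays, which lends ES cells the smaller spread of the other groups, the same difference had a limma adjusted p of 0.00177.

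Several genes that Wnt signalling turns on had lower means in knockout ES cells, and none passed. Lef1 was at 6.69, 6.45 and 6.38 in knockout arrays, against 8.19, 7.0 and 6.96 in wild-type arrays. The groups did not overlap, wild-type array 1 was far above the others, and the difference of -0.88 (SE 0.32, limma adjusted p = 0.549) became -0.47 without that array and -0.56 without both arrays numbered 1. Notum, a secreted enzyme that inactivates Wnt, was at 7.58, 8.49 and 7.62 in knockout arrays, against 7.93, 9.40 and 8.93 in wild-type arrays, with overlap (difference -0.86, SE 0.40, limma adjusted p = 0.598). Its difference became -1.27 without wild-type array 1, -0.7 without knockout array 1 and -1.11 without both. Sp5 was at 7.54, 7.45 and 7.30 in knockout arrays, against 8.10, 7.62 and 7.61 in wild-type arrays, without overlap (-0.35, SE 0.16), and the difference was -0.19 without wild-type array 1. Axin2 differed by 0.09 (SE 0.11) and Tcf7, another nuclear partner of β-catenin, by -0.28 (SE 0.14).

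Rspo2 was at 7.23, 6.87 and 6.79 in knockout ES cells, against 6.46, 6.76 and 6.38 in wild-type ES cells, with each knockout array above each wild-type array (0.43, SE 0.16, limma adjusted p = 0.554), and the difference was 0.26 without both arrays numbered 1. Sfrp2, another Wnt-binding decoy, was at 8.41, 8.29 and 8.27 in knockout arrays, against 8.80, 8.94 and 8.56 in wild-type arrays, all lower (-0.44, SE 0.13). Fzd5, a Frizzled of early embryonic and eye development, was at 9.55, 10.08 and 9.79 in knockout arrays, against 10.25, 10.19 and 10.01 in wild-type arrays, with overlap (-0.34, SE 0.16), and the difference was -0.22 without knockout array 1 and -0.17 without both arrays numbered 1. The groups did not overlap for 8 of the 46 genes, 2 higher and 6 lower, where 15.6% of all genes had groups apart, 6.34% higher and 9.3% lower.

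Dkk1 and Wnt11 in ES cells were high on the array with high endoderm markers. Dkk1, an Lrp inhibitor needed for head formation, was at 7.34, 5.57 and 5.48 in knockout arrays, against 5.63, 5.11 and 5.45 in wild-type arrays. Knockout array 1 alone was high, and the difference of 0.73 became 0.13 without it. Wnt11, a ligand known in zebrafish for cell movement during gastrulation, was at 8.82, 7.59 and 7.63 in knockout arrays, against 7.62, 7.50 and 7.32 in wild-type arrays, and its difference of 0.53 likewise became 0.13. Sfrp1 was low on that array, at 9.04, 10.11 and 10.52 in knockout arrays, against 9.65, 9.85 and 10.06 in wild-type arrays. Its difference of 0.04 became 0.47 without knockout array 1. Other marker lists moved in ES cells too. The list mean of 7 epithelial markers lay between 11.97 and 12.59 in knockout ES cells, against 10.95 to 12 in wild-type ES cells. The means of 5 oligodendrocyte lineage markers (8.11 to 8.22 in knockout, against 8.43 to 8.60 in wild type) and of 6 radial glia markers (6.60 to 6.75 in knockout, against 6.76 to 6.92 in wild type) were lower without overlap, though no gene of these lists passed the test. The part of any of these shifts in the ES cell values was not tested.

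**Figure D4:**
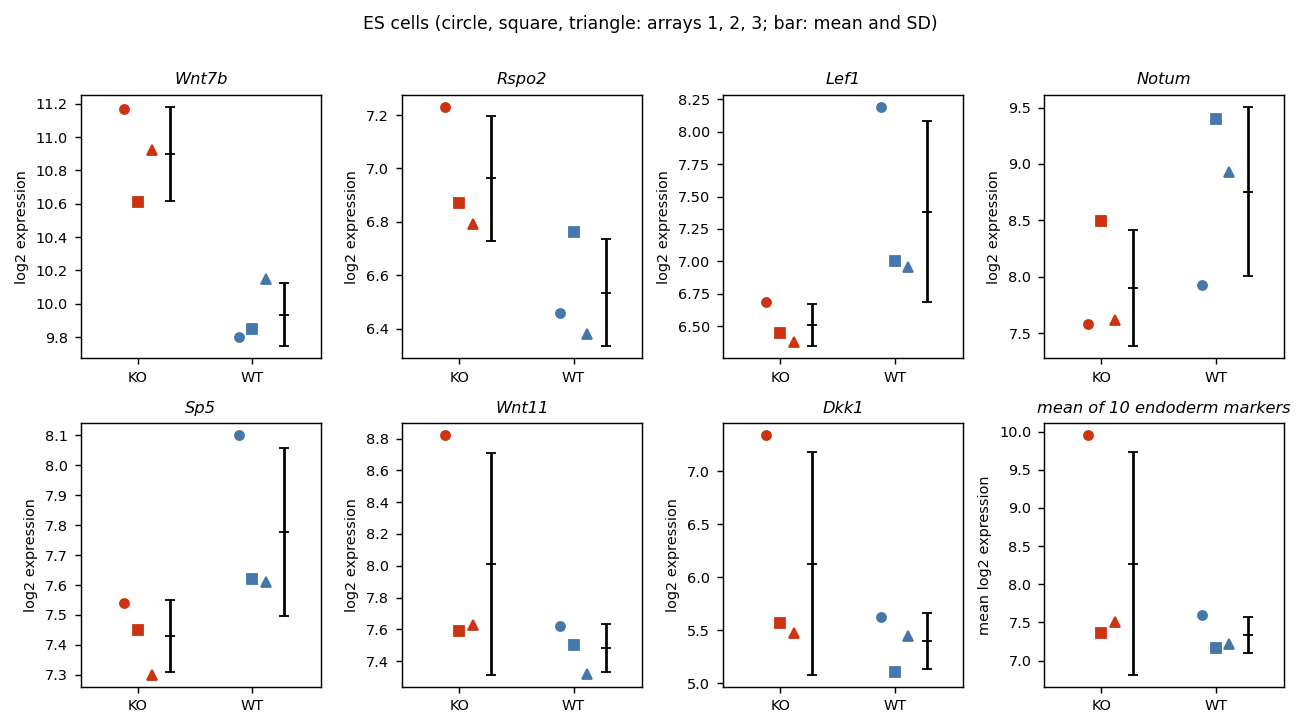
Log2 expression in ES cells of 7 Wnt genes and the mean of 10 endoderm markers, knockout (red) left of wild type (blue), each panel with its own vertical axis that does not start at 0. Circles, squares and triangles are arrays 1, 2 and 3, and the black bar is the mean with its SD (n = 3). Knockout array 1 is high for Wnt11, Dkk1 and the endoderm markers, and wild-type array 1 is high for Lef1.

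In brain no gene of the 46 passed either, where 0.00585% of all genes passed; at an unadjusted p under 0.05 there were 5 of the 46, and 1252 of all 17091. The means of 33 of the 46 genes were higher in knockout brain (71.7%, against 50.5% of all genes), with a median difference of 0.10, against 0.00 over all genes. The share ran from 67.4% to 76.1% over the alternatives that kept all 46 genes. After the 40th percentile filter it was 85% (17 of 20 genes), where 43.2% of all genes were higher. With each array centred on its median it was 71.7%, where 45.2% of all genes were higher. By role, the genes with a higher mean were 7 of 12 ligands, 10 of 12 receptors, 5 of 6 R-spondins and Lgr receptors, 4 of 6 inhibitors and 7 of 10 targets. The 46 genes are not independent of each other, and no test was run on these counts.

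Wif1, the Wnt inhibitory factor, had the largest difference in brain. It was at 5.53, 5.56 and 6.20 in knockout brain, against 5.30, 5.21 and 5.28 in wild-type brain. Knockout array 3 was far above the others, and the groups did not overlap (difference 0.50, SE 0.16, limma adjusted p = 0.627). Without that array the difference was 0.28. Its signal was low on these arrays, which limits what can be read from it.

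Lgr5 was at 8.50, 8.36 and 8.44 in knockout brain, against 8.22, 8.31 and 7.90 in wild-type brain, every knockout array being higher (0.29, SE 0.12, limma adjusted p = 0.662, and a difference of 0.17 without wild-type array 3). Rspo3 was at 7.28, 6.96 and 7.14 in knockout arrays, against 6.96, 6.63 and 6.93 in wild-type arrays, the lowest knockout array and the highest wild-type array meeting at the same rounded value (0.28, SE 0.12, limma adjusted p = 0.662). Both genes fell in knockout fibroblasts. Fzd1, a widely expressed Frizzled, was at 10.19, 9.72 and 9.96 in knockout arrays, against 9.92, 9.72 and 9.61 in wild-type arrays, with overlap (0.21, SE 0.13, and 0.09 without knockout array 1 or 0.14 without wild-type array 3).

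Lef1 was at 7.90, 7.83 and 7.62 in knockout brain, against 7.75, 7.72 and 7.23 in wild-type brain, with overlap (0.22, SE 0.15, and 0.05 without wild-type array 3). Wnt3, a ligand of axis formation, was at 4.46, 4.41 and 4.56 in knockout arrays, against 4.29, 4.34 and 4.35 in wild-type arrays (0.15, SE 0.06), near the bottom of the array's range. The groups did not overlap for 13 of the 46 genes, 10 higher and 3 lower, where 14% of all genes had groups apart, 7.98% higher and 6.06% lower. The 10 were Wnt3, Wnt5a, Fzd6, Fzd10, Rspo3, Lgr5, Dkk1, Wif1, Tcf7 and Znrf3, and the 3 were Wnt9a, Fzd4 and Tnfrsf19. List means of cell type markers overlapped between knockout and wild-type brain for endothelium (8.52 to 8.68 in knockout, against 8.41 to 8.65 in wild type), meninges (7.92 to 8.36 in knockout, against 7.89 to 8.63 in wild type), proliferation (8.77 to 9.22 in knockout, against 8.66 to 8.89 in wild type) and radial glia (9.41 to 9.56 in knockout, against 9.43 to 9.55 in wild type), while that of neurons was lower in knockout brain (12.25 to 12.34 in knockout, against 12.35 to 12.43 in wild type); their part was not tested.

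The wild-type arrays compare the level of each gene between cell types. Of the 46 genes, 18 had their highest wild-type mean in fibroblasts, 14 in brain and 14 in ES cells. The highest differed from the next by the limma test for 13 of those 18, 8 of the 14 in brain and 10 of the 14 in ES cells. The same counts were not made over all genes, so they describe the 46 genes alone. Between brain and fibroblasts 35 genes differed, 14 higher in brain and 21 lower, where 60.9% of all genes differed, 25.5% higher and 35.4% lower. Between fibroblasts and ES cells 36 differed, 16 higher and 20 lower (64.2% of all genes, 24.1% higher and 40.1% lower), and between brain and ES cells 30 differed, 16 higher and 14 lower (73.8%, 26.1% higher and 47.7% lower). Taken over all genes, the median of the per-gene differences was -0.107 for brain minus fibroblasts. It was -0.139 for fibroblasts minus ES cells and -0.225 for brain minus ES cells. With each array centred on its median, these values became -0.061, -0.077 and -0.118.

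Dkk2 had the widest range: its wild-type mean was 5.88 in brain, 10.83 in fibroblasts and 6.14 in ES cells, and brain and ES cells did not differ by the test (limma adjusted p = 0.135). Wnt5a, a ligand that acts largely without β-catenin, averaged 7.39 in brain, 10.12 in fibroblasts and 6.07 in ES cells, with each step past the threshold. Rspo2 averaged 8.67 in brain, 9.73 in fibroblasts and 6.53 in ES cells, and Lgr5 averaged 8.15 in brain, 9.09 in fibroblasts and 7.49 in ES cells, again with each step past it. Of the 6 genes that fell in knockout fibroblasts, Rspo2, Rspo3, Lgr5 and Dkk2 were highest in fibroblasts among the wild-type groups, while Lgr4 and Sfrp1 were highest in ES cells.

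Fzd5 and Tcf7 led in ES cells. Fzd5 averaged 6.36 in brain, 8.85 in fibroblasts and 10.15 in ES cells, and Tcf7 averaged 7.35 in brain, 7.69 in fibroblasts and 9.84 in ES cells. Lrp5 followed the same order, with 5.97 in brain, 7.21 in fibroblasts and 8.24 in ES cells. Of the 10 targets, 6 had their highest mean in brain and 4 in ES cells; 4 were higher and 4 lower in brain than in ES cells by the test. Axin2 averaged 8.07 in brain, 7.07 in fibroblasts and 7.43 in ES cells, and Apcdd1, a membrane inhibitor of the pathway, averaged 8.80 in brain, 8.29 in fibroblasts and 6.65 in ES cells. Among Frizzleds, Fzd3, which guides axons, was highest in brain (8.93, against 7.27 in fibroblasts and 7.52 in ES cells), and Fzd2 was highest in fibroblasts (11.29, against 9.04 in brain and 9.01 in ES cells). Sfrp2 was highest in brain (9.92, against 8.69 in fibroblasts and 8.76 in ES cells).

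Other genes with wide ranges of their wild-type means were Fzd1 (2.37), Dkk3 (2.29), Fzd7 (2.17) and Rspo3 (2.13), all highest in fibroblasts, although for Fzd1 the step from fibroblasts to brain did not pass the test (limma adjusted p = 0.54). The ranges of the wild-type means of Dkk1 (0.16), Wnt3 (0.20), Wnt11 (0.22), Fzd10 (0.29), Wnt5b (0.29) and Rnf43 (0.35) were small, and neither step of their order passed the test. Their highest and lowest cell types did differ for Rnf43 (brain minus ES cells -0.35, limma adjusted p = 0.0195), Fzd10 (brain minus ES cells 0.29, 0.0281) and Wnt5b (brain minus fibroblasts -0.29, 0.0364). Wnt7b averaged 10.17 in brain, 9.09 in fibroblasts and 9.93 in ES cells, with brain and ES cells not told apart.

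**Figure D5:**
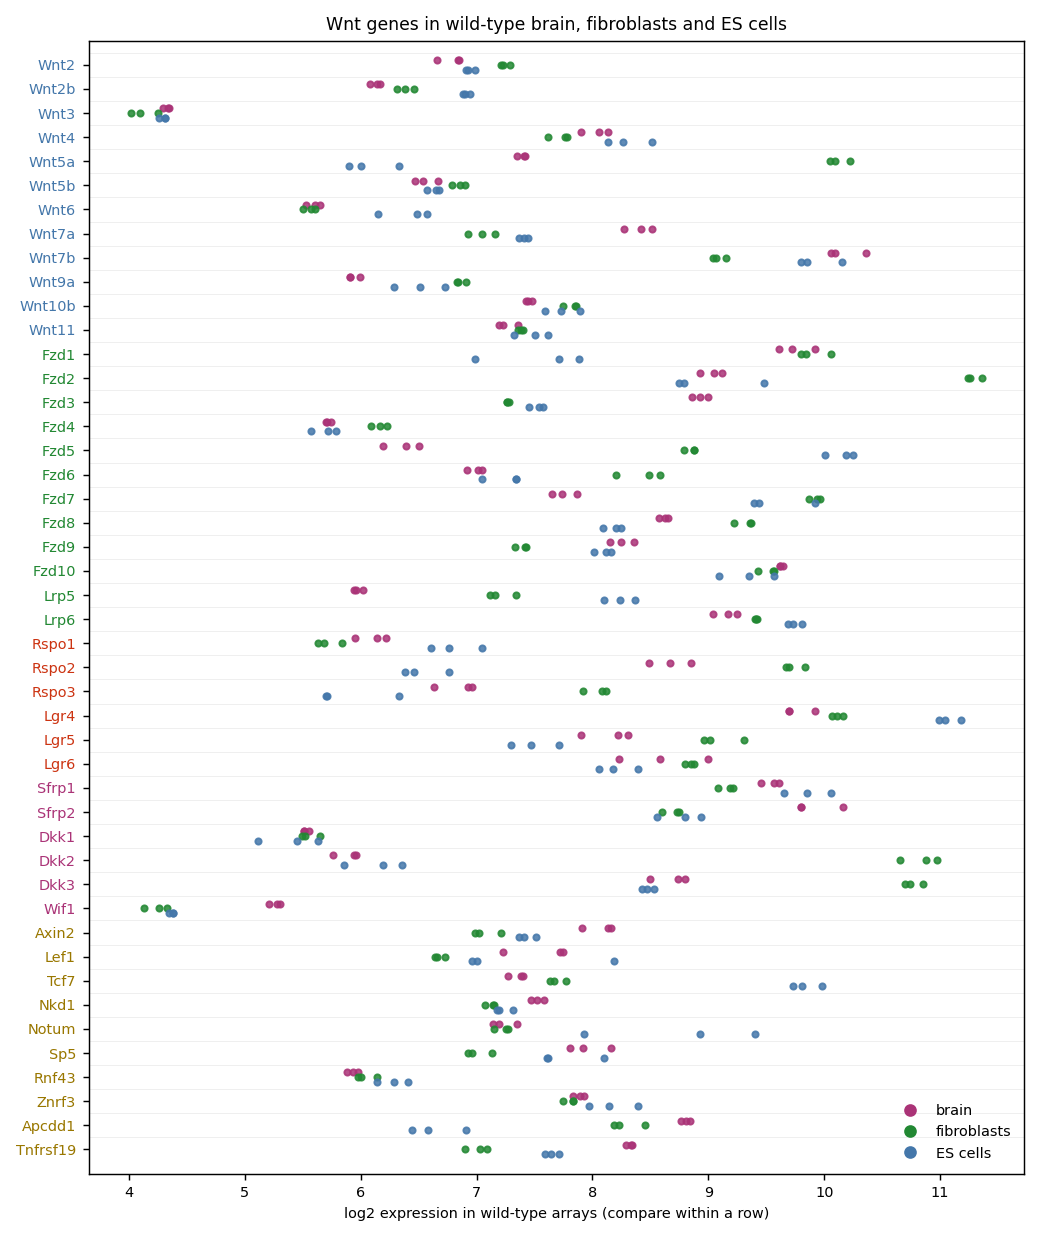
Log2 expression of the 46 genes on the 9 wild-type arrays, 3 each of brain, fibroblasts and ES cells, 1 row per gene and 1 point per array; gene names are coloured by role as in the plot of knockout effects. Levels are to be compared within a row. Dkk2 and Wnt5a are farthest apart, with fibroblasts highest, and Fzd5 is highest in ES cells and lowest in brain.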

How the data were processed

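RNA of 18 samples was measured on single-colour arrays. Per the labels' protocols, RNA was purified with TRIzol and RNeasy and labelled as biotinylated cRNA by way of an oligo-dT primer, which favours the 3′ end of transcripts. The deposited values are log2 expression after RMA, per the submitters' processing notes. RMA makes the arrays' overall distributions alike, so a shift shared by most genes would not be seen. The sources used here give no array type, chip definition or RMA version, and do not say whether all arrays were normalized together.

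Of 24185 probe sets, 64 were Affymetrix controls and stayed out, as did 1561 with no symbol in the RefSeq table (GRCm38.p6); 22560 matched 1 symbol. The probe set with the highest mean stood for a gene, giving 17091 genes, of which 116 share all values with another gene, none of them among the 46. Array medians ran from 8.26 to 8.35. No gene was filtered out.

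Knockout was tested against wild type in each cell type with limma 3.58.1 in R 4.3.3 (lmFit, eBayes with an intensity trend). Differences between cell types and wild-type levels came from 1 limma fit of all 18 arrays. Adjusted p-values are Benjamini-Hochberg values over all genes, and the script was tested on simulated data. Samples were grouped by the genotype and cell type in the labels. Python 3.11.15 with matplotlib 3.10.9 drew the figures.

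Replicate numbers are shared by the groups. Same-numbered knockout and wild-type arrays deviated together in fibroblasts (correlations of deviations 0.36, 0.16 and 0.19) and brain (0.29, 0.35 and 0.47). For that reason a fit with the number as a block is given there where it changes a call. In fibroblasts knockout array 3 also deviated with wild-type array 2 (0.14), and the labels name no pairs. In ES cells the correlations were 0.37, 0.32 and 0.08, and knockout array 3 deviated more with wild-type array 2 (0.2). For ES cells themselves the block is therefore given only among the alternatives. The blocked fit of all 18 arrays, which gave the blocked differences between cell types, also took the ES cell arrays by number. Its spread rests in part on that pairing. The alternatives tried were that block, another probe set summary, a 40th percentile filter, quantile normalization, median centring, other priors, array weights, 1 fit of all 18 arrays, and arrays left out.

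The members and lists were chosen with earlier results of these data known. Values per array are given for genes called in a comparison, for genes without overlap and with a log2 difference of at least 0.5, and for the largest difference per role and cell type; other genes with values per array were chosen after their values were seen. Promoter sequences are those of RefSeq.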

Additional observations from a re-analysis of the deposited data

Results flagged for a closer look

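In all, 6 differences of the knockout effect between cell types passed the limma test of the difference itself. For Rspo2 the effect in fibroblasts minus that in ES cells was -1.47 (SE 0.18, limma adjusted p = 0.00138), and minus that in brain it was -1.15 (SE 0.18, limma adjusted p = 0.0178). For Lgr5 the effect in fibroblasts minus that in brain was -1.11 (SE 0.20, limma adjusted p = 0.0264). For Wnt7b the effect in fibroblasts minus that in ES cells was -1.01 (SE 0.19, limma adjusted p = 0.0235). All 3 knockout arrays lay below all 3 wild-type arrays for Rspo2 and Lgr5 in fibroblasts, and above them for Wnt7b in ES cells.

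The targeted gene also differed: the Ccnc effect in fibroblasts minus that in ES cells was 1.07 (SE 0.22, limma adjusted p = 0.0348), and that in brain minus that in ES cells was 1.67 (SE 0.22, limma adjusted p = 0.00365), so the loss of signal was largest in ES cells (difference -2.37). The fibroblast gap was no longer past the threshold without any 1 fibroblast array (limma adjusted p 0.0744 to 0.0884), without wild-type ES cell array 2 (0.0601), after quantile normalization (0.0631) or with the mean of the probe sets (0.0915). The differences share their fibroblast or ES cell arrays and are not independent of each other.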

How the results depend on the processing

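The 9 calls in fibroblasts became 3 in a fit of all 18 arrays, 5 after a filter at the 40th percentile, which tests fewer genes (20 of the 46), and 5 to 10 when 1 array was left out. Rspo2, Lgr5 and Dkk2 kept their calls under every alternative in which they were tested, and Wnt4 and Wnt9a under all but the 18-array fit. The ES cell count of 0 became 3 in the 18-array fit (Wnt7b, Sfrp2 and Lef1), and the brain count stayed at 0 throughout. Among the alternatives, the share of all genes called was worked out only for the block, in fibroblasts and in fibroblasts minus brain. Whether the other counts given here follow the share of all genes was not tested. For the 57 other pathway genes, the fibroblast count of 7 became 0 in the 18-array fit, 4 without an intensity trend, 11 with array weights and 3 to 8 with 1 array left out, and the ES cell count of 0 became 1 in the 18-array fit.

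With the replicate block, used as a pairing of arrays, the count of other pathway genes in fibroblasts became 13, and the members whose effect differed became 5 for fibroblasts minus ES cells, 5 for fibroblasts minus brain and 3 for brain minus ES cells; Ccnc stayed at -2.37 in ES cells (limma adjusted p = 0.0677) and at -0.69 in brain (0.0426). The block changed no other count by more than 1.5 times. Fibroblasts minus ES cells gave 4 without both ES cell arrays numbered 1, and 1 to 4 with 1 array left out. Fibroblasts minus brain gave 9 with array weights and 0 to 2 with 1 array left out. Brain minus ES cells gave 2 without both ES cell arrays numbered 1, and 0 to 1 with 1 array left out. The filter left 18, 15 and 14 members that differed between wild-type fibroblasts and ES cells, brain and fibroblasts, and brain and ES cells. Ccnc in ES cells was -1.76 with the mean of its probe sets (limma adjusted p = 0.0733), -2.25 without both arrays numbered 1 (0.0536), and -2.56 to -2.24 with 1 array left out, of which 4 fits ended the call: those lacking wild-type array 1 (0.21), wild-type array 2 (0.231), wild-type array 3 (0.11) and knockout array 2 (0.299).

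The cause of these changes was not tested, apart from the filter. No called difference changed sign. Uncalled genes changed sign under some alternative (10 of the 46 in fibroblasts, 17 in brain and 20 in ES cells), none with a difference above 0.15. The members' median SD was larger in ES cells (0.186 in knockout, 0.168 in wild type) than in fibroblasts (0.11 in knockout, 0.0741 in wild type) or brain (0.0983 in knockout, 0.0991 in wild type), which limits what 3 arrays can show there.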
